A study of Rattus norvegicus with 192 samples.

Results

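The genes described here belong to the families whose proteins hold, prime and fuse synaptic vesicles. They were chosen by symbol alone, so family members that work outside the synapse are included. The rule takes the synaptotagmins (17 genes), syntaxins (15), VAMPs (8), SNAP proteins (5), synapsins (3), SV2 proteins (3), RIMs (4), Munc13 proteins, whose genes are named Unc13 (4), Rab3 proteins (4) and complexins 1, 2 and 4 (3), which makes 66 of the 38354 genes in the table. Of these, 62 had a mean of at least 1 count per 1000000 counts (CPM) over all libraries and entered the tests, as did 15427 genes in all. Syt8, Stx11, Stx19 and Cplx4 were under that level and are only named.

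The measurements are polyA RNA-seq of the nucleus accumbens core, a part of the ventral striatum whose main cell type is the medium spiny neuron, from outbred laboratory rats. The labels give no treatment, genotype, age, sex or extraction method for any rat. They differ only in the format of the rat identifier, so the libraries were grouped by it. The table holds 12 libraries with a corrected E21 label, which got their E21 identifier when the submitters repaired a mismatch of genotypes, 77 with an E21 label, 67 with an all-digit identifier (numeric label), 2 with an AA1 label and 1 with another corrected label. These 159 libraries are those of 192 labels that carry no note of removal, and each was taken as 1 rat. Library size ranged between 14.6 and 61.2 M (1000000) expected counts, as kallisto estimates them for each gene. The genes were compared between the 11 libraries with at least 100 CPM of Th, tyrosine hydroxylase of dopamine neurons (Th libraries), and the 147 with at least 100 CPM of Drd1, the D1 dopamine receptor of medium spiny neurons (Drd1 libraries). The Th libraries are 1 of the E21 and 10 of the numeric label. The Drd1 libraries are 12 corrected E21, 76 E21, 56 numeric, 2 AA1 and 1 other. A numeric library reached neither threshold.

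As background, an action potential opens calcium channels at the active zone, and vesicles that are already docked and primed there fuse within a fraction of a millisecond. The synaptotagmins include the calcium sensors, and the SNARE proteins of the syntaxin, SNAP and VAMP families pull the membranes together. Complexins clamp and then promote the assembled SNAREs, and RIM, Munc13 and Rab3 proteins tether and prime the vesicle. Synapsins gather vesicles into a reserve pool, and SV2 proteins are glycoproteins of the vesicle membrane. In the accumbens these genes are expressed by the local medium spiny neurons and interneurons, while the proteins at cortical and dopaminergic terminals there are made from RNA that lies largely in the cortex and the midbrain.

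The 2 sets of libraries were checked against marker genes. Drd1 and Th are themselves markers and were left out here, since they define the sets. Summed over the other 7 medium spiny neuron genes, the level lay between 298.5 and 492 CPM in Th libraries and between 2434 and 6841 CPM in Drd1 libraries, and 6 of the 7 genes were lower in every Th library. Summed over the other 5 midbrain dopamine neuron genes, it lay between 1024 and 3291 CPM in Th libraries and between 22.0 and 42.1 CPM in Drd1 libraries, and all 5 were higher in every Th library. By these genes the Th libraries go against their tissue label, and they are called by the gene that defines them. Summed over 6 cortical projection neuron genes, the level was 12.4 to 118 CPM in Th libraries and 2.77 to 1389 CPM in Drd1 libraries. The 5 myelin genes summed to 23220 to 32220 CPM in Th libraries and 8861 to 35450 CPM in Drd1 libraries. Other cell type markers moved with the sets too. Of 5 astrocyte genes, summed at 3333 to 7121 CPM in Th libraries and 2759 to 7866 CPM in Drd1 libraries, Gfap and Aqp4 were higher and Slc1a2 lower in every Th library. All 3 cholinergic interneuron genes (4.25 to 10.0 CPM in Th libraries, 27.7 to 92.9 CPM in Drd1 libraries) were lower in every Th library, with Lhx8 at a median of 0. Of 5 GABA interneuron genes (88.4 to 192 CPM in Th libraries, 223 to 1230 CPM in Drd1 libraries), Sst, Npy and Lhx6 were lower and Pvalb higher in every Th library. No microglia or endothelial gene was free of overlap. The part of these markers in the members' contrasts was not tested. In tissue of this kind, fewer cells of a type and less RNA per cell cannot be told apart. The sets are defined by measured levels and by no label, so the values that follow are a description and carry no test.

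Most release genes had overlapping ranges in the 2 sets of libraries, and the few that did not went in both directions. In 5 members every Th library was above every Drd1 library (Rims3, Vamp1, Sv2a, Syt2 and Stx12), which is 8.06% of the members, against 6.0% of all genes tested. In 6 members every Th library was below every Drd1 library (Syt10, Syt16, Rims2, Rab3d, Unc13a and Syt5), which is 9.68% of the members, against 6.57% of all genes. The other 51 overlapped. The ratio of medians was at least 2 in 5 members with the Th libraries higher and in 8 with the Th libraries lower, where 8.95% and 9.2% of all genes reached it. The median log2 ratio over members was 0.039, against 0.025 over all genes. The shares of members were thus near those of all genes. With another scaling of the libraries (median of ratios), only Rims3 of the 5 stayed above without overlap, at a log2 ratio of 1.43 where CPM gave 1.39, and 7 members were below. Of all genes 5.37% were above and 7.86% below with that scaling.

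**Figure D1:**
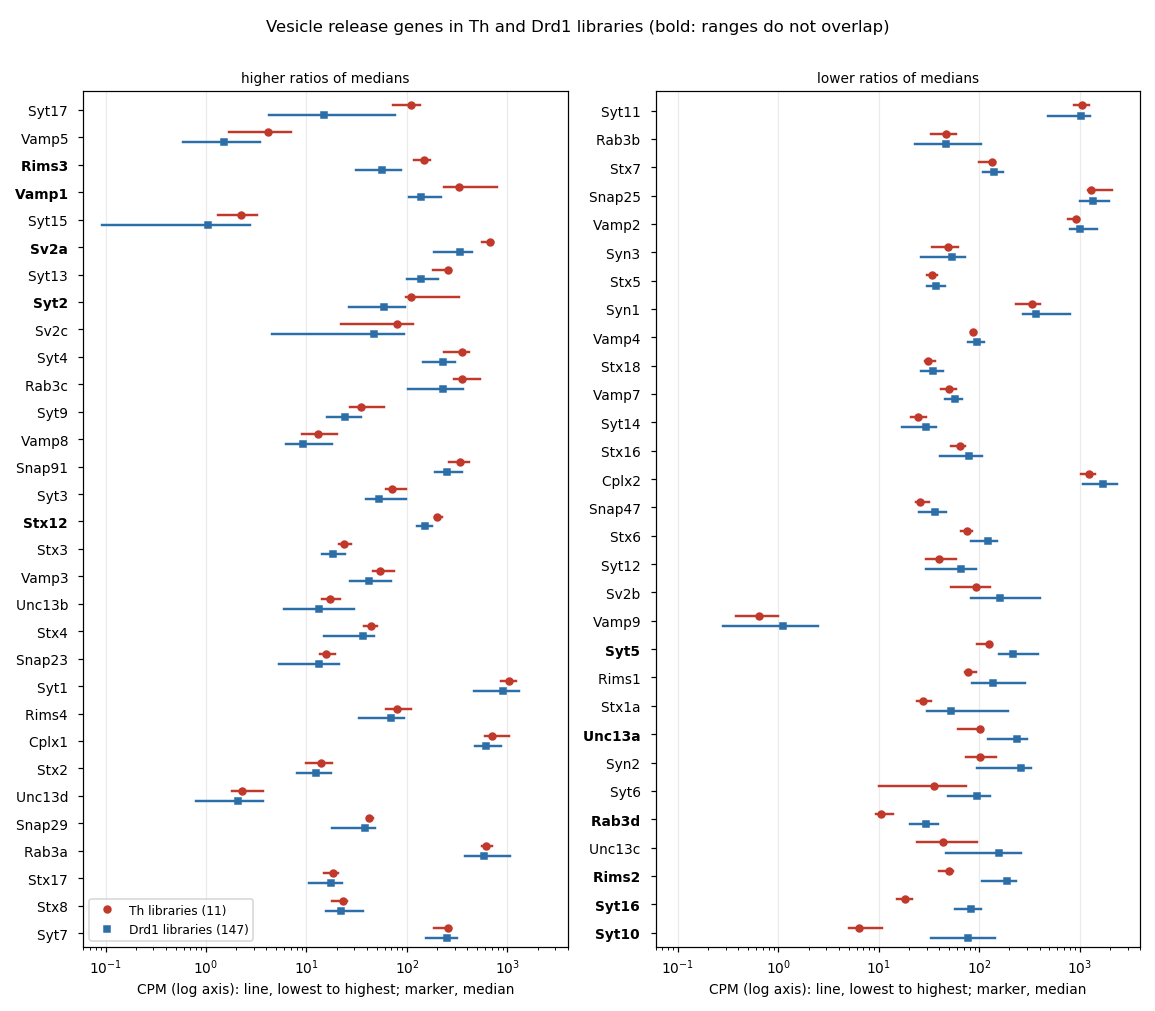
Level of the tested members in Th libraries (circles, n = 11) and Drd1 libraries (squares, n = 147), in CPM on a log axis, ordered by the ratio of medians. Lines run between the lowest and the highest library and markers give the median; names in bold are the 11 members whose lines do not overlap, 5 with Th libraries above and 6 with Th libraries below.

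Among the synaptotagmins, the sharpest contrast was that of Syt10, which in mouse olfactory bulb neurons serves secretion of a growth factor. Its level was 5.10 CPM in the lowest, 6.39 in the median and 10.8 in the highest Th library, and 33.2, 78.1 and 143.5 CPM in Drd1 libraries. The highest Th library was below the lowest Drd1 library, and the log2 ratio of medians was -3.61. Syt16 had 15.1, 18.2 and 21.4 CPM in Th libraries and 57.1, 83.3 and 104 CPM in Drd1 libraries, with no overlap and a log2 ratio of -2.20. Syt5 was lower in every Th library as well, at 94.9, 123.9 and 131 CPM against 158, 218 and 384 CPM in Drd1 libraries. Syt6, whose protein is known for its part in sperm acrosome exocytosis, overlapped, with 10.1, 35.3 and 73.8 CPM in Th libraries and 49.3, 95.3 and 127.8 CPM in Drd1 libraries, and 7 of the 11 Th libraries were under every Drd1 library. Syt12 overlapped fully, with medians of 39.8 CPM in Th libraries and 65.8 in Drd1 libraries.

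Other synaptotagmins were higher in the Th libraries. Syt17, an unusual family member also known as B/K protein, had 72.5, 109 and 136 CPM in Th libraries and 4.22, 14.8 and 76.8 CPM in Drd1 libraries. Its log2 ratio of medians, 2.88, was the largest of all members, and 10 of the 11 Th libraries were above every Drd1 library. The overlap comes through 2 Drd1 libraries at 75.9 and 76.8 CPM, whose levels of Slc17a7, a gene taken up further on, were 1148 and 823 CPM. Syt2, the fast sensor of brainstem synapses and of parvalbumin interneurons, had 98.7, 109 and 328.5 CPM in Th libraries and 26.4, 59.6 and 95.4 CPM in Drd1 libraries, with no overlap. Syt13 (255.5 against 137 CPM in the medians), Syt4 (358 against 229), Syt9 (35.1 against 24.0) and Syt15 (2.24 against 1.06) were higher in the median of the Th libraries, and each overlapped. Syt1, the main fast sensor of forebrain synapses, had medians of 1040 CPM in Th libraries and 904 CPM in Drd1 libraries, and all 11 Th libraries lay within the Drd1 range. Syt7 (259 and 250 CPM), a high-affinity sensor, and Syt11 (1044 and 1027 CPM), which binds no calcium, also lay within it.

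Of the SNAREs, Vamp1 and Stx12 had no overlap in CPM, and Vamp1 had the higher ratio of medians. Vamp1 is the vesicle SNARE that predominates in brainstem and spinal cord. It had 237, 327 and 796.5 CPM in Th libraries and 105, 138 and 220 CPM in Drd1 libraries, with no overlap and a log2 ratio of 1.25. Vamp2, the main vesicle SNARE of the forebrain, had 770, 927 and 996 CPM in Th libraries and 794, 999 and 1501 CPM in Drd1 libraries, and the sets overlapped. Vamp5 was at 1.70, 4.15 and 6.98 CPM in Th libraries and 0.597, 1.52 and 3.43 CPM in Drd1 libraries, and the sets overlapped at these low levels. Vamp8, which serves secretion outside synapses, had medians of 13.2 CPM in Th libraries and 9.25 CPM in Drd1 libraries. The medians of Vamp3, Vamp4 and Vamp7 differed between the sets by log2 ratios between -0.20 and 0.38. Vamp9 was near the filter, at 0.637 CPM in Th libraries and 1.10 CPM in Drd1 libraries.

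The highest Vamp1 and Syt2 levels came in the same Th libraries. Vamp1 was at 796.5 CPM in the E21 library and at 623.5, 496.5 and 483.6 CPM in 3 numeric libraries, and the other 7 were at 335.9 CPM or less. These 4 libraries also had the 4 highest levels of Syt2, at 328.5, 290.6, 184.9 and 184.0 CPM, where the other 7 were at 111.7 CPM or less. Pvalb, the calcium buffer parvalbumin of fast-spiking neurons, was highest in the same 4, between 73.8 and 117 CPM, and between 40.4 and 64.3 CPM in the other 7. So was Slc17a6, a vesicular glutamate transporter of the midbrain and thalamus, between 127 and 195.5 CPM in the 4 and between 39.0 and 115 CPM in the 7. The part of these cell type markers in the levels of Vamp1 and Syt2 was not tested. In CPM the lowest Th library was still above the highest Drd1 library for both genes. With median-of-ratios scaling the sets overlapped for both, with a lowest Th value of 224 and a highest Drd1 value of 285 for Vamp1.

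The membrane SNAREs were closer together. Stx12, a syntaxin of recycling endosomes, was higher in every Th library, at 192, 201 and 226 CPM against 127, 152 and 178 CPM in Drd1 libraries. Stx1a, a syntaxin of the presynaptic membrane, had 24.0, 27.2 and 33.3 CPM in Th libraries and 30.1, 52.4 and 195 CPM in Drd1 libraries, and 7 of the 11 Th libraries were below every Drd1 library. Stx6, of the trans-Golgi network, was below every Drd1 library in 10 of the 11. Snap25, the SNARE that works with syntaxin at the synapse, had 1200, 1301 and 2093 CPM in Th libraries and 1001, 1358 and 1956 CPM in Drd1 libraries. The 2093 CPM were those of the E21 library, and the other 10 Th libraries lay within the Drd1 range. Snap23, its widely expressed relative, had medians of 15.6 CPM in Th libraries and 13.3 CPM in Drd1 libraries, with full overlap. Complexins overlapped too, with medians of 703.5 CPM in Th libraries and 618 CPM in Drd1 libraries for Cplx1, and of 1250 CPM in Th libraries and 1693 CPM in Drd1 libraries for Cplx2. The remaining syntaxins (Stx2, Stx3, Stx4, Stx5, Stx7, Stx8, Stx16, Stx17 and Stx18) and Snap29, Snap47 and Snap91, whose product is a clathrin assembly protein and no SNARE, all overlapped, with log2 ratios between -0.48 and 0.43.

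**Figure D2:**
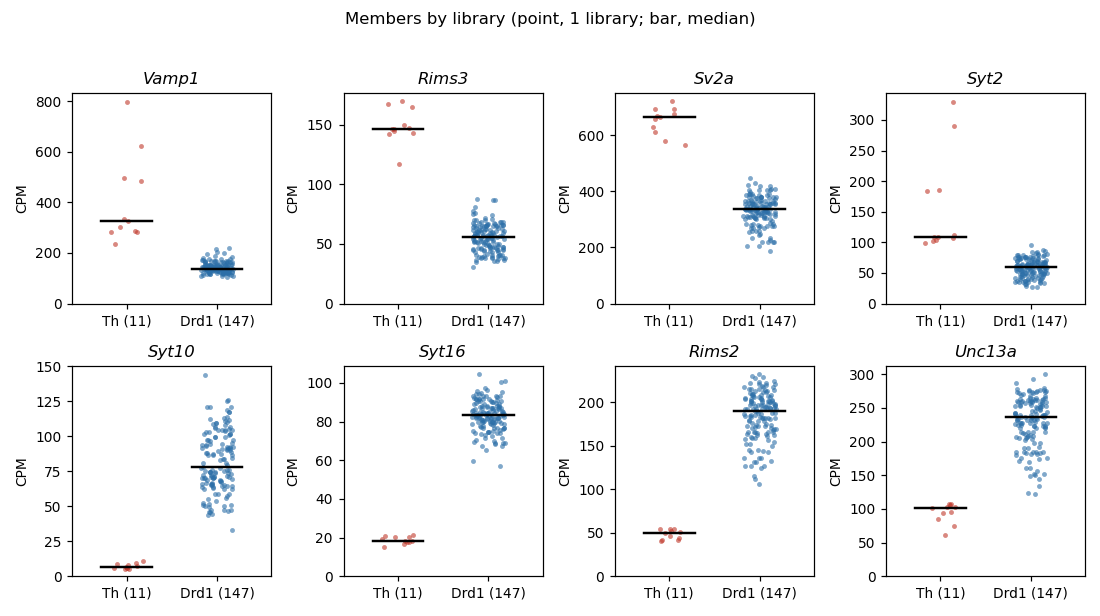
Levels of 8 members in CPM, with Th libraries (n = 11) on the left of each panel and Drd1 libraries (n = 147) on the right; each point is 1 library and each bar the median. Vamp1, Rims3, Sv2a and Syt2 lie higher in all 11 Th libraries, and Syt10, Syt16, Rims2 and Unc13a lie lower in all 11.

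The active zone genes split within their families. Rims3, a short RIM that keeps only the last domain of the longer forms, had 117, 147 and 169.6 CPM in Th libraries and 30.9, 55.96 and 87.5 CPM in Drd1 libraries, with no overlap and a log2 ratio of 1.39. Rims2, a full-length RIM, had 40.2, 50.03 and 54.4 CPM in Th libraries and 106, 189.6 and 232 CPM in Drd1 libraries, with no overlap and a log2 ratio of -1.92. Rims1, the other long form, had 71.5, 76.5 and 92.7 CPM in Th libraries and 85.4, 138 and 286 CPM in Drd1 libraries, and overlapped through 4 of the 11 Th libraries. Rims4, the second short form, overlapped, with medians of 80.0 CPM in Th libraries and 69.8 CPM in Drd1 libraries. Thus 1 short RIM gene was higher and 1 long RIM gene lower in all 11 Th libraries, and the other two overlapped.

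The Munc13 genes, whose proteins open syntaxin for SNARE assembly, held 1 that was lower in every Th library and 3 that overlapped. Unc13a had 60.9, 101 and 107.5 CPM in Th libraries and 122, 236 and 301 CPM in Drd1 libraries, with no overlap. Unc13c, best known from the cerebellum, had 23.9, 43.3 and 94.1 CPM in Th libraries and 47.1, 156 and 260 CPM in Drd1 libraries, and 9 of the 11 were below every Drd1 library. Unc13b had medians of 17.0 CPM in Th libraries and 13.2 CPM in Drd1 libraries and overlapped. Unc13d, a gene of blood cell granule release, was at 2.26 and 2.07 CPM. Of the Rab3 genes, Rab3d, known from exocrine secretion, was lower in every Th library, at 9.42, 10.4 and 13.8 CPM against 20.3, 29.6 and 39.1 CPM in Drd1 libraries. Rab3c had medians of 353 CPM in Th libraries and 229 CPM in Drd1 libraries, and 5 Th libraries exceeded every Drd1 library. Rab3a, the main Rab of synaptic vesicles, with 611 CPM in the median of Th libraries and 580 CPM in that of Drd1 libraries, and Rab3b, with 46.8 and 47.2 CPM, lay within the Drd1 range in all 11 Th libraries.

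Of the vesicle proteins, Sv2a, the target of the drug levetiracetam, was higher in every Th library, at 563, 665 and 723 CPM against 186, 337 and 447.5 CPM in Drd1 libraries. Sv2c, the SV2 form of the basal ganglia, varied more, with 21.9, 80.5 and 114 CPM in Th libraries and 4.57, 46.9 and 92.6 CPM in Drd1 libraries, and 3 of the 11 Th libraries were above every Drd1 library. Sv2b overlapped in the other direction, with medians of 93.6 CPM in Th libraries and 161 CPM in Drd1 libraries. Syn2 had 73.6, 101 and 146 CPM in Th libraries and 95.4, 258 and 328 CPM in Drd1 libraries, and 3 Th libraries were below every Drd1 library. Syn1, with medians of 338 CPM in Th libraries and 367.2 CPM in Drd1 libraries, and Syn3, with 49.1 and 53.2 CPM, overlapped as well.

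The E21 library with a high Th level comes from a different label than the other 10. Against the 56 numeric Drd1 libraries, the 10 numeric Th libraries were above without overlap in the same 5 members (8.06%, against 9.52% of all genes) and below in 10 (16.1%, against 11.3%), namely the same 6 and Syn2, Rims1, Stx6 and Cplx2. Set against the Drd1 libraries whose Slc17a7 level was under the median, all Th libraries were above in 8 members (12.9%, against 9.07% of all genes) and below in 8 (12.9%, against 9.62%).

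A list of 36 other genes of vesicle release held 2 above and 2 below without overlap (over all genes 6.0% and 6.57%). Those above were Cadps2 (280 CPM in the median of Th libraries, 22.6 CPM in that of Drd1 libraries) and Cadps (294 and 113 CPM), both priming factors of dense-core vesicles. Sncb, beta-synuclein, had the next highest ratio (603 and 276 CPM, overlapping). Those below were Synpr, the vesicle protein synaptoporin (34.8 and 463 CPM), and Tspoap1, a RIM-binding protein (75.3 and 207 CPM). Cplx3, a complexin outside the rule, had 1.10 CPM in the median of Th libraries and 13.5 CPM in that of Drd1 libraries and overlapped. Of the 6 vesicular transporters, Slc18a2, which loads monoamines, and Slc17a6 were above without overlap, and Slc18a3, which loads acetylcholine, was below.

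Promoter sequence is shown for 4 members. Vamp1 and Syt16 lay on opposite sides in the Th libraries, Stx1a had one of the steepest slopes described further on, and Syn1 shares a motif with Vamp1. RefSeq promoters of the rat assembly GRCr8, from 250 bases before to 50 after the start, were found for 52 of the 66 members. For the 38278 of 38354 symbols found in the RefSeq gene table of GRCr8, the deposited position equals the start or the end of the gene. The motifs were searched on both strands, where overlapping matches count once each, and matches are in capitals: the GC box GGGCGG, the cAMP response element TGACGTCA and the TATA box TATAAA. The sequences are those of Vamp1 (chr4:159698644-159698943, plus strand), Syn1 (chrX:3725495-3725794, plus strand), Stx1a (chr12:27306422-27306721, minus strand) and Syt16 (chr6:98456332-98456631, plus strand).
Vamp1: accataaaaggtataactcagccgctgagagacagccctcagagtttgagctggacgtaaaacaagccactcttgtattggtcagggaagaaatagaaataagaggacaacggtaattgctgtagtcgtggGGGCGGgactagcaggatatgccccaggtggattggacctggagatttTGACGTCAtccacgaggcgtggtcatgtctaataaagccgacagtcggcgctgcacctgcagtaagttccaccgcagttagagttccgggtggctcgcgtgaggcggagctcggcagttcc
Syn1: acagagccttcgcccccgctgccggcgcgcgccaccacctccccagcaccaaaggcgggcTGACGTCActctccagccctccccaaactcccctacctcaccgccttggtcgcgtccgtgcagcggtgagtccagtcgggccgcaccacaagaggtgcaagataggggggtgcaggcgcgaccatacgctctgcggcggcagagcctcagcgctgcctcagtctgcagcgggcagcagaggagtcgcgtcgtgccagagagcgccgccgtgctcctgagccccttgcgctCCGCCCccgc
Stx1a: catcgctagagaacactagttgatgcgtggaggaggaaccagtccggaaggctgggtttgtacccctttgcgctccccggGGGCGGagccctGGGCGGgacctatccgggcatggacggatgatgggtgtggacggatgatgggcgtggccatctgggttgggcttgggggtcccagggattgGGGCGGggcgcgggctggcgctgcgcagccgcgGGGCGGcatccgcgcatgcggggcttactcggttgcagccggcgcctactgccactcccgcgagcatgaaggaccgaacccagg
Syt16: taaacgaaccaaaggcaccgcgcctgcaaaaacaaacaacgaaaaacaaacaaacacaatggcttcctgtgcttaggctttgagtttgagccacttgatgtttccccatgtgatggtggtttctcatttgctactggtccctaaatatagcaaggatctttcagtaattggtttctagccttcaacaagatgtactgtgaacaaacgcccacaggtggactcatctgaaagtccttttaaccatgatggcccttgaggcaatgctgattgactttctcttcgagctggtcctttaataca
The Vamp1 window holds 1 GC box and 1 cAMP response element, as does that of Syn1. Stx1a has 4 GC boxes, and the start in the RefSeq promoter table, 27306471, differs from the 27306547 of the deposited table, so that its window is placed by another start than the deposited one. Syt16 has none of these letters in its window. A GC box was found in 39 of the 52 member promoters and in 34.9% of all 27457 promoters. The cAMP response element was found in 3.85% of the members (Syn1 and Vamp1) and in 1.91% of all, and the TATA box in 1.92% of the members (Stx19) and in 14.3% of all. A match describes the letters and not a bound site.

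Slc17a7 encodes the transporter that fills the vesicles of cortical neurons with glutamate. The numeric library that reached neither threshold had 1993 CPM of it, above every Drd1 library. There is 1 such library, and so no spread. It was above every Drd1 library in 20 of 62 members (32.3%, against 9.89% of all genes) and below every one in 10 (16.1%, against 10.1% of all genes). Those above include Stx1a (353 CPM), Syt17 (157), Sv2b (623), Syn1 (1102), Syt1 (1672), Snap25 (2254), Vamp2 (1530), Syn2 (513) and Unc13b (41.6). Those below include Sv2c (2.44), Syt10 (10.9), Syt6 (25.0), Syt2 (7.95) and Unc13c (12.2). Rims1 (265) and Rab3b (55.8) lay within the Drd1 range.

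Within the 147 Drd1 libraries, Slc17a7 ranged between 1.92 and 1148 CPM, and the release genes were fitted against it. The slope is the change of log2(CPM + 1) for each doubling of Slc17a7 (CPM + 1), from limma over all genes with Benjamini-Hochberg adjustment, at an adjusted p of 0.05. More members rose than fell with Slc17a7, and Syt17 and Stx1a rose most. Of 62 members, 24 rose (38.7%, against 20.5% of all genes) and 15 fell (24.2%, against 23.7% of all genes). The other 23 did not pass. The median slope was 0.0062 over members and -0.0021 over all genes.

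The steepest member was Syt17, with a slope of 0.39 (SE 0.017, limma adjusted p = 1.20e-49), or 31.2% more for each doubling. In the 3 Drd1 libraries with the lowest Slc17a7 (1.92, 2.74 and 4.39 CPM) it was at 8.41, 7.01 and 5.97 CPM. In the 3 with the highest Slc17a7 (926, 1022 and 1148 CPM) it was at 51.6, 70.3 and 75.9 CPM. Pearson's r on the log2 scale was 0.89 and Spearman's rho 0.96 (n = 147, two-sided permutation p = 1e-05 for each, the smallest that 100000 permutations can give), and r was 0.90 without the 2 libraries farthest from the median of Slc17a7. Within labels r was 0.96 in 12 corrected E21, 0.87 in 76 E21 and 0.89 in 56 numeric libraries. Syt17 thus moved with Slc17a7 in each label group. Such correlations were computed for the 62 members tested.

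Stx1a rose by 0.23 (SE 0.012, 95% interval 0.21 to 0.26, limma adjusted p = 7.99e-42), with 39.7, 33.2 and 32.8 CPM in the 3 libraries lowest in Slc17a7 and 126, 117 and 195 CPM in the 3 highest. Its r was 0.85 and its rho 0.94 (n = 147, permutation p = 1e-05 each), 0.87 without the 2 farthest libraries, and 0.89 in corrected E21, 0.84 in E21 and 0.87 in numeric libraries.

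**Figure D3:**
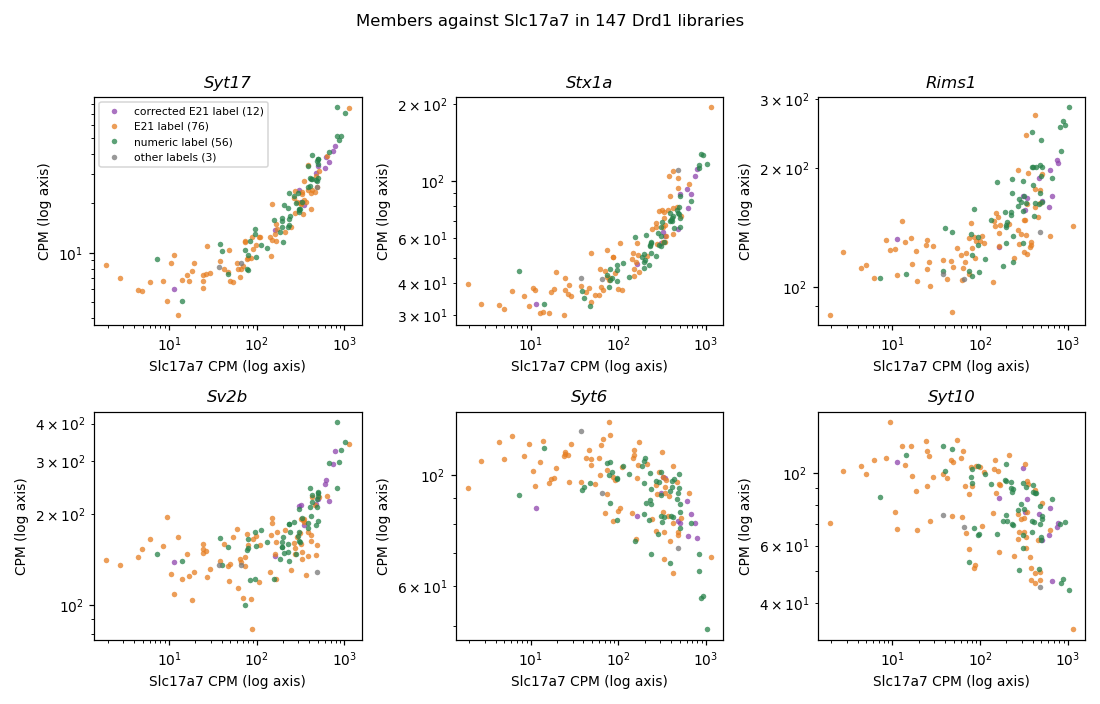
Levels of 6 members against Slc17a7 in the 147 Drd1 libraries, both in CPM on log axes; each point is 1 library, coloured by the format of its label. Syt17 and Stx1a run nearly level at the low end of Slc17a7 and climb at the high end, and Syt6 and Syt10 fall.

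Among the Rab3 and active zone genes, Rab3b rose by 0.13 (SE 0.011, limma adjusted p = 3.25e-22; r = 0.71, rho = 0.75, permutation p = 1e-05 each, n = 147). Rims1 rose by 0.13 (SE 0.010, limma adjusted p = 6.96e-22; r = 0.70, rho = 0.78, permutation p = 1e-05 each, n = 147), with 85.4, 123.2 and 112 CPM in the 3 libraries lowest in Slc17a7 and 257, 286 and 143 CPM in the 3 highest. Of these the 143 CPM are of the E21 library with the most Slc17a7, and the other 2 are numeric. Unc13b rose by 0.10 (SE 0.014), Rims3 by 0.086 (SE 0.011), Rab3c by 0.079 (SE 0.014), Rab3a by 0.047 (SE 0.0081) and Rims4 by 0.036 (SE 0.0088). Rims2 (-0.026), Rab3d (-0.021) and Unc13c (-0.072) fell, and Unc13a (-0.0059, 95% interval -0.028 to 0.016) did not pass. The RIM and Rab3 families therefore held 3 members that rose and 1 that fell each.

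Of the vesicle proteins, Sv2b rose by 0.12 (SE 0.013, limma adjusted p = 2.42e-15) and Sv2a by 0.046 (SE 0.0095), while Sv2c fell by 0.10 on the log2 scale (SE 0.039, limma adjusted p = 0.0269). Syn1 rose by 0.074 (SE 0.0083), and Syn2 (-0.026) and Syn3 (-0.035) fell. The fast sensor Syt1 rose by 0.067 (SE 0.010), and the SNAREs Snap25 and Vamp2 rose by 0.058 (SE 0.0062) and 0.050 (SE 0.0059). In the 3 Drd1 libraries lowest in Slc17a7 Vamp2 had 925, 883 and 868 CPM, and 1144, 1142 and 1344 CPM in the 3 highest. Vamp1 (0.056), Snap91 (0.043), Syt13 (0.062), Cplx1 (0.033), Vamp8 (0.034), Snap47 (0.029), Syt7 (0.025), Syt3 (0.021) and Stx12 (0.016) also rose.

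Among members that fell, Syt10 had the steepest slope, -0.11 (SE 0.014, limma adjusted p = 1.59e-11), or 7.36% less for each doubling. It was at 70.1, 101 and 105 CPM in the 3 libraries lowest in Slc17a7 and at 70.8, 44.0 and 33.2 CPM in the 3 highest. Syt6 had a slope of -0.072 (SE 0.0082, limma adjusted p = 6.30e-14; r = -0.59, rho = -0.64, permutation p = 1e-05 each, n = 147). Stx16, a syntaxin of the Golgi, fell by 0.053 on the log2 scale (SE 0.0076) and Syt4 by 0.044 (SE 0.0084). Syt14, Vamp9, Stx2, Stx6 and Syt16 fell by 0.034, 0.032, 0.030, 0.016 and 0.016. Of the 5 members that were above in every Th library, Rims3, Vamp1, Sv2a and Stx12 rose with Slc17a7 and Syt2 did not pass (-0.016, 95% interval -0.047 to 0.016). Of the 6 that were below, Syt10, Syt16, Rims2 and Rab3d fell, and Unc13a and Syt5 (-0.0084, interval -0.026 to 0.0092) did not pass. Over all genes 20.5% rose and 23.7% fell, and the share among all genes without overlap was not taken. In the fit with all libraries, given further on, the slopes of these members that passed turned sign. The slopes use the Drd1 libraries that the first comparison also uses, so they are not independent of it. These slopes are those of libraries in which cell type markers moved. The cortical genes Tbr1, Neurod2, Neurod6 and Emx1 all rose, by 0.43 to 0.78, and 7 of 8 medium spiny neuron genes fell. Drd1, which selects these libraries, is among the 7 and fell by 0.074. Of 5 GABA interneuron genes 4 rose, Pvalb by 0.21, and 1 fell. All 3 cholinergic interneuron genes fell, 2 of 5 astrocyte genes rose, and no myelin, microglia or endothelial gene passed. With oligodendrocyte and astrocyte scores as covariates, 23 of 62 members rose and 12 fell, where 2901 of 15426 genes rose and 3784 fell. The part of the other cell type markers in the members' slopes was not tested.

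With the label group as a covariate 24 of 62 members rose and 17 fell, where 3309 of 15426 genes rose and 4770 fell. Without the 2 libraries farthest from the median of Slc17a7 26 members rose and 15 fell, where 3313 genes rose and 3836 fell. Fitted over the numeric Drd1 libraries alone 20 members rose and 9 fell, where 2054 genes rose and 2411 fell. Over the E21 ones alone 19 members rose and 13 fell, where 2585 genes rose and 3820 fell. The slope itself differed between E21 and numeric libraries in 4 members, all flatter in E21 libraries (limma's interaction test, 6.45% of members, against 0.933% of all genes; none steeper, against 0.22%). For Syt17 the slope was 0.32 (SE 0.021) in E21 and 0.51 (SE 0.034) in numeric libraries. For Rims1 it was 0.081 (SE 0.013) in E21 and 0.20 (SE 0.021) in numeric libraries, and for Sv2b 0.066 (SE 0.016) in E21 and 0.20 (SE 0.025) in numeric libraries. For Unc13b it was 0.041 (SE 0.018, limma adjusted p = 0.0586) in E21 and 0.18 (SE 0.025) in numeric libraries. Slc17a7 ran lower in E21 libraries (median 89.1 CPM) than in numeric ones (median 254 CPM). The part of these ranges in the straight-line slopes was not tested.

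Of the 36 other release genes, 21 rose and 3 fell with Slc17a7 (over all genes 20.5% rose and 23.7% fell). Cplx3 had the steepest slope, 0.65 (SE 0.021), followed by Cadps2 at 0.36 (SE 0.014) and Doc2a, a calcium sensor of spontaneous release, at 0.26 (SE 0.015). Those that fell were Rab27b (-0.10), Doc2b (-0.091) and Synpr (-0.068).

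The label groups were compared within the Drd1 libraries. What else differed between the label groups is not given in the labels and cannot be told apart from the identifier format. In E21 libraries more members were lower than higher. Of 62 members 25 fell (40.3%, against 25.9% of all genes) and 2 rose (3.23%, against 11.7% of all genes), in limma over 76 E21 and 56 numeric libraries. The median change was -0.067 over members and -0.030 over all genes. The split depends on the scaling: with median-of-ratios scaling 18 members fell and 6 rose, where 2782 of 15427 genes fell and 2846 rose.

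Syt17 fell to a lowest, median and highest level of 4.22, 11.4 and 75.9 CPM in E21 libraries, against 5.08, 18.4 and 76.8 CPM in numeric libraries (log2 change -0.62, SE 0.13, limma adjusted p = 0.000146). The ranges overlapped almost fully, and 54 of 76 E21 libraries were under the numeric median. Sv2c, Unc13b, Rab3c and Rims3 were the next largest falls. Sv2c was at 4.57, 41.2 and 92.6 CPM in E21 and 21.0, 49.4 and 82.7 CPM in numeric libraries (-0.51, SE 0.16, limma adjusted p = 0.00937), and 24 E21 libraries were below every numeric library while 5 were above. Rims3 was at 30.9, 48.2 and 77.8 CPM in E21 and 37.9, 62.2 and 87.5 CPM in numeric libraries (-0.30, SE 0.046, limma adjusted p = 2.00e-07), and 68 of 76 were under the numeric median. Rab3c (-0.32, SE 0.056) was under that median in 65 of 76 and Unc13b (-0.32, SE 0.060) in 60 of 76. All 4 RIM genes and all 3 SV2 genes fell in E21 libraries. With the first principal component of the libraries and Slc17a7 as covariates, an alternative added after the data were seen, none of these 7 passed, and their values lay between -0.094 (Rims3, limma adjusted p = 0.118) and -0.0086 (Sv2b, limma adjusted p = 0.947). With the component alone, Rims1, Rims3, Rims4 and Sv2b still passed, and Sv2c was at 0.019 (limma adjusted p = 0.80). With Slc17a7 alone, Sv2a (-0.092, limma adjusted p = 0.065) and Sv2b (-0.11, limma adjusted p = 0.0866) did not pass. Syt17 did not pass with Slc17a7 alone either (-0.10, SE 0.075, limma adjusted p = 0.271), and it did with the component alone (-0.77, limma adjusted p = 2.10e-06).

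The 2 members that rose in E21 libraries were Vamp3 and Syt6. Vamp3, the vesicle SNARE cellubrevin of non-neuronal cells, had a median of 43.4 CPM in E21 and 41.0 CPM in numeric libraries (0.14, SE 0.047, limma adjusted p = 0.0123). Of the 76 E21 libraries, 44 were above the numeric median and 20 were above the highest numeric library, which had 54.7 CPM. Syt6 was at 63.9, 99.0 and 127.8 CPM in E21 and 49.3, 92.0 and 113.5 CPM in numeric libraries (0.14, SE 0.040, limma adjusted p = 0.00293), and 54 of 76 were above the numeric median. With the first principal component as a covariate, Vamp3 did not pass (0.025, limma adjusted p = 0.605) and Syt6 did (0.20, limma adjusted p = 7.86e-06). With Slc17a7 as the covariate, Vamp3 passed (0.18, limma adjusted p = 0.00228) and Syt6 did not (0.047, limma adjusted p = 0.288). Syt7 had the most E21 libraries outside the numeric range, 31 of 76 below it. Among the main forms, Snap25 (-0.10, SE 0.030), Syt1 (-0.24, SE 0.043) and Cplx2 (-0.11, SE 0.030) fell, while Vamp2 (-0.044, 95% interval -0.10 to 0.014), Syn1 (-0.042, interval -0.13 to 0.042), Rab3a (-0.014, interval -0.087 to 0.060) and Cplx1 (0.037, interval -0.023 to 0.097) did not pass.

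In corrected E21 libraries more members were higher than lower. Of 62 members 16 rose (25.8%, against 6.32% of all genes) and 1 fell (1.61%, against 1.88% of all genes), in limma over 12 corrected E21 and 76 E21 libraries. With median-of-ratios scaling 10 members rose and 1 fell, where 722 of 15427 genes rose and 548 fell. Both label comparisons share the E21 libraries, so they are not independent. Syt17 rose to 6.05, 31.5 and 44.3 CPM in corrected E21 libraries, against 4.22, 11.4 and 75.9 CPM in E21 libraries (0.98, SE 0.23, limma adjusted p = 0.00243), and 11 of 12 were above the E21 median. With Slc17a7 as a covariate its rise was 0.31 (SE 0.12, limma adjusted p = 0.0722) and did not pass. Sv2b rose to 139, 219 and 325.5 CPM in corrected E21 libraries, against 82.9, 153 and 342 CPM in E21 libraries (0.51, SE 0.096, limma adjusted p = 0.00029), and 10 of 12 were above the E21 median. Unc13b (0.49, SE 0.10), Stx1a (0.49, SE 0.16) and Rab3c (0.41, SE 0.10) rose too, with 11 of 12 libraries above the E21 median for each. Snap25 (0.21, SE 0.054) and Syt1 (0.39, SE 0.082) were above the E21 median in 12 of 12. Syt6 fell to 75.1, 83.2 and 99.2 CPM in corrected E21 libraries, against 63.9, 99.0 and 127.8 CPM in E21 libraries (-0.19, SE 0.064, limma adjusted p = 0.0457), and 11 of 12 were under the E21 median.

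Slc17a7 moved with these labels. It was at 11.4, 489 and 781 CPM in corrected E21, 1.92, 89.1 and 1148 CPM in E21 and 7.26, 254 and 1022 CPM in numeric Drd1 libraries. All 6 cortical genes fell and 6 of 8 medium spiny neuron genes rose in E21 against numeric libraries. In corrected E21 against E21 libraries all 6 cortical genes rose and 4 of 8 medium spiny neuron genes fell. Slc17a7 is itself among the 6 cortical genes. Drd1, which selects these libraries, is among the 8, and it rose in the E21 libraries and did not pass in the corrected E21 libraries. The part of these cell type markers in the members' changes was not tested beyond a fit with Slc17a7. With Slc17a7 as a covariate, the difference of Stx1a was 0.094 in E21 against numeric libraries, where it was -0.24 without, and it did not pass (SE 0.051, limma adjusted p = 0.125). Its difference in corrected E21 against E21 libraries was then 0.036 (limma adjusted p = 0.81), where it was 0.49 without. In that fit 2 members rose and 26 fell between E21 and numeric labels, where 2004 of 15426 genes rose and 4923 fell. Between corrected E21 and E21 labels 11 members rose and 0 fell in limma, with 24 members at an unadjusted p under 0.05. Over all genes 869 rose and 201 fell there. Of the 36 other release genes, 26 fell and 2 rose in E21 against numeric libraries (over all genes 25.9% and 11.7%). In corrected E21 against E21 libraries 16 of them rose and 1 fell (over all genes 6.32% and 1.88%). Cplx3 (-0.95), Cadps2 (-0.67) and Doc2a (-0.57) were the largest falls in E21 libraries. The largest rises in corrected E21 libraries were those of Cplx3 (1.54), Cadps2 (1.07) and Doc2a (0.80). Napa (0.20) and Synpr (0.16) rose in E21 libraries, and Synpr (-0.24) fell in corrected E21 libraries.

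Members varied among the Drd1 libraries to very different degrees. The SD of log2(CPM + 1) ran between 0.10 for Stx12 and 0.94 for Sv2c, with a median of 0.21 over members and 0.24 over all genes. Syt17 (0.85) and Stx1a (0.53) were next. The spread of Sv2c followed the first principal component of the 147 libraries, which held 26.6% of the variance and on which it had r = 0.96 (across libraries, as a description). Unc13a (0.92), Syn3 (0.91), Rims2 (0.90), Syt14 (0.87), Syn2 (0.86) and Syt7 (0.80) followed it too, and Stx8 (-0.76) and Vamp3 (-0.76) ran against it. In all, 12 members (19.4%) had r of at least 0.7, where 14.8% of all genes did, and 2 (3.23%) had r of -0.7 or less, where 7.49% did. Slc17a7 had r = -0.16 with it, Drd1 0.42 and the myelin gene Mbp -0.50, and the part of these markers was not tested. Outside the members the component ran with Akap9 (0.96) and against Gabarap (-0.98) and Rnasek (-0.96). Its SD was 0.25 in corrected E21, 1.26 in E21 and 0.38 in numeric libraries, and 23 of the 24 libraries under a score of -1 carry the E21 label. With the component and Slc17a7 both as covariates, 2 members fell and 1 rose in E21 against numeric libraries (Snap29 at -0.091, Syt7 at -0.062 and Syt6 at 0.11). Of 15426 genes 1201 fell and 287 rose there. In corrected E21 against E21 libraries limma called 0 members, with 12 members at an unadjusted p under 0.05. Over all genes 18 rose and 2 fell in that fit.

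**Figure D4:**
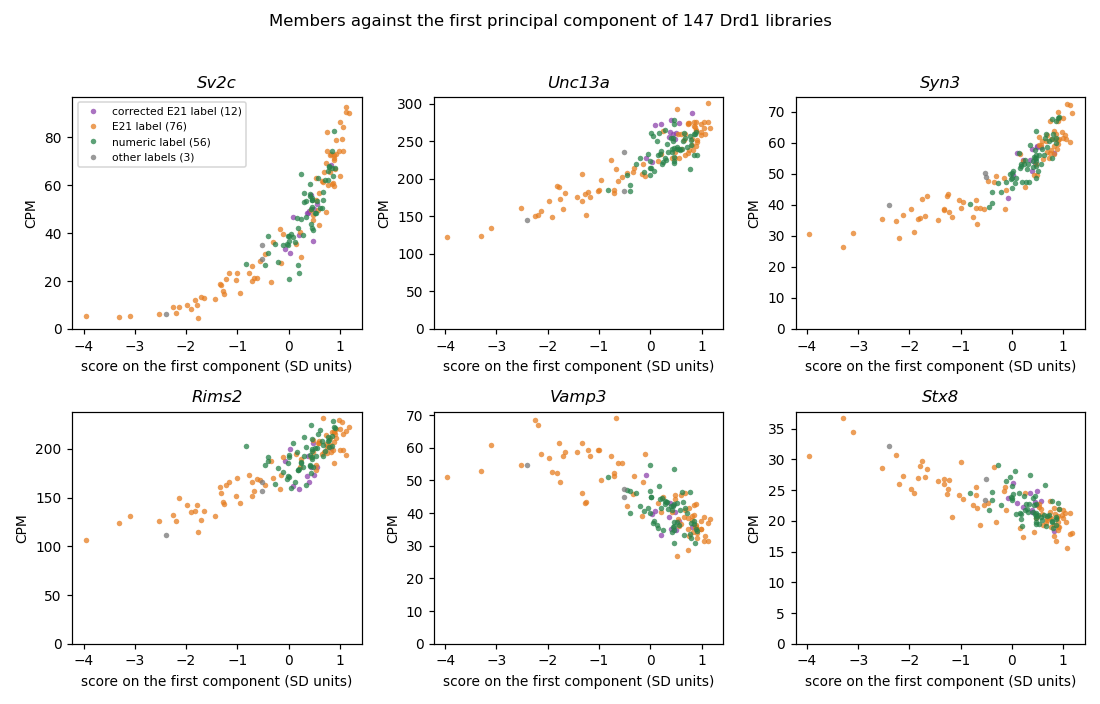
Levels of 6 members in CPM against the score of each of the 147 Drd1 libraries on the first principal component of all tested genes, in SD units; each point is 1 library, coloured by the format of its label. Sv2c, Unc13a, Syn3 and Rims2 climb with the score and Vamp3 and Stx8 fall, and 23 of the 24 libraries under a score of -1 carry the E21 label.

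Members also moved with each other. Over the 1891 pairs of members in the 147 Drd1 libraries, the median r was 0.054, 69 pairs had r of at least 0.7 and 13 had r of -0.7 or less. These are descriptions over libraries that share label groups and depth. The members most like Syt17 were Stx1a (r = 0.92), Syt13 (0.75) and Rims1 (0.75). Those most like Rab3b were Rab3a (0.78), Cplx1 (0.73) and Vamp1 (0.73), and those most like Sv2c were Syn3 (0.90), Rims2 (0.89) and Unc13a (0.87). Those most like Stx1a were Syt17 (0.92), Syn1 (0.70) and Rab3b (0.70), and those most like Rims1 were Syt17 (0.75), Unc13b (0.70) and Sv2b (0.65). Sv2c, Syn3, Rims2 and Unc13a, which were alike, also ran with the first component.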

How the data were processed

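PolyA RNA-seq of the nucleus accumbens core was deposited as 1 table of log2 values, 1 per gene symbol and rat. The authors estimated expression with kallisto 0.48, per the submitters' processing notes. The sources used here do not name the genome build, the annotation or how transcripts were summed. The deposited log2 values were taken as log2(expected count + 1). This unit was inferred from the values and their differing totals, and no label states it. Gene positions equal those of the RefSeq annotation of GRCr8 for 38278 of 38278 shared symbols. Strand use is unknown, so antisense or overlapping genes cannot be told apart, and reads of near-identical family members are uncertain. Levels are not per length, so genes were not compared by level.

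Values were turned back into expected counts and scaled to CPM, with 1 CPM equal to 14.56 counts in the shallowest and 61.2 in the deepest library. Tests used log2(CPM + 1) with limma 3.58.1 in R 4.3.3 (trend, two-sided, Benjamini-Hochberg over every gene averaging 1 CPM or more), and permutation tests with scipy 1.17.1. The steps were tested on simulated data. The highest correlation between 2 libraries was 0.994, and each was counted as 1 sample; nothing in the labels ties 2 libraries to 1 rat. The labels name no separate cultures or batches, so p-values measure the spread between these libraries. Label groups come from the identifier format in the titles and notes; the 33 samples noted as removed were not analysed here.

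The members and the gene lists were chosen with earlier results of these data known. Values are given for the main forms of each family, the 10 members with the largest and the 10 with the smallest ratio between Th and Drd1 libraries, the 10 steepest slopes in each direction, and the 5 largest called label changes in each direction. Alternatives were median-of-ratios and quantile scaling, other pseudocounts and filters, other sets of libraries, and covariates. 1 member counted among those tested is not reported here by name or value.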

Additional observations from a re-analysis of the deposited data

Results flagged for a closer look

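The slope on Slc17a7 differed between E21 and numeric Drd1 libraries in 4 members, by limma's interaction test over all genes (76 E21 and 56 numeric libraries). The difference, E21 minus numeric, was -0.18 for Syt17 (SE 0.041, limma adjusted p = 0.00605), -0.14 for Unc13b (SE 0.033, limma adjusted p = 0.0125), -0.13 for Sv2b (SE 0.030, limma adjusted p = 0.00814) and -0.12 for Rims1 (SE 0.025, limma adjusted p = 0.00264). Rims1, of the active zone, Unc13b, a priming factor, Sv2b, of the vesicle membrane, and Syt17 thus all climbed less with Slc17a7 in E21 libraries. Each slope was above 0 in both label groups, and that of Unc13b in E21 libraries did not pass (0.041, limma adjusted p = 0.0586). The first principal component, which spread with an SD of 1.26 in E21 and 0.38 in numeric libraries, moved with the label, and its part in the difference was not tested. Slc17a7 also ran lower in E21 libraries (1.92 to 1148 CPM, median 89.1) than in numeric libraries (7.26 to 1022 CPM, median 254). The fits are straight lines, while Syt17 ran nearly level at the low end of Slc17a7. The part of this curve and of the differing ranges in the 4 differences was not tested.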

How the results depend on the processing

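Of 802 single-member slopes under alternatives, 716 kept direction and side of the threshold, as did 556 of 678 values of E21 against numeric and 617 of 678 of corrected E21 against E21 libraries. Of 310 log2 ratios between Th and Drd1 libraries, 309 moved by less than the spread. The 4 differences of slopes kept their calls with median-of-ratios scaling and a pseudocount of 5. The cause was not tested for any change below. Members with no overlap and Th libraries higher numbered 1 with median-of-ratios scaling and 8 against Drd1 libraries under the median of Slc17a7, and with Th libraries lower 10 in numeric libraries alone. Members whose slope fell numbered 9 in numeric libraries alone, where 2411 of 15426 genes fell.

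In E21 against numeric libraries, members that rose numbered 6 with median-of-ratios scaling, 7 with quantile normalization, 9 with all libraries, 1 with the log10 total as a covariate, 5 with the first component and 1 with the component and Slc17a7, where 2 fell. Over all genes those that rose numbered 2846, 3087, 2688, 784, 1739 and 287 in the same order, and 1201 fell in the last fit. Over all genes, 31.2% of calls were higher in CPM and 50.6% with median-of-ratios scaling. In corrected E21 against E21 libraries, members that rose numbered 10 with median-of-ratios scaling, where 56.9% of all calls were higher and not 77.1%, and 0 with the component and Slc17a7. In limma, members that fell there numbered 0 without a filter (20 members at an unadjusted p under 0.05), 0 with all libraries (19), 0 with Slc17a7 as a covariate (24), 3 with the component and 0 with the component and Slc17a7 (12). Over all genes those that fell numbered 199, 132, 201, 700 and 2 in the same order. The component was chosen as a covariate after seeing the data.

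The fit with all libraries adds the Th libraries, with their low Slc17a7. It also adds the numeric library that reached neither threshold, which had the highest Slc17a7 (1993 CPM). In that fit slopes turned sign to 0.046 for Syt5, -0.00985 for Syt3, -0.033 for Syt9, -0.017 for Stx3, -0.021 for Sv2a, 0.025 for Syt6, -0.044 for Vamp5, 0.057 for Syn2, -0.042 for Vamp1, -0.013 for Rims3, -0.011 for Stx12, 0.10 for Syt16, 0.083 for Rims2, 0.091 for Syt10, 0.058 for Rab3d, 0.038 for Unc13c, 0.024 for Stx6 and 0.064 for Unc13a. The slope was -5.4e-05 for Syt3 in numeric libraries alone, -0.0092 for Syt7 in E21 libraries alone and 0.014 for Unc13a with the component. In E21 against numeric libraries, the change with the component was 0.019 for Sv2c, 0.095 for Stx16, 0.027 for Syn3, -0.070 for Stx8, 0.061 for Syt14 and 0.012 for Unc13a, and with the component and Slc17a7 0.0021 for Syn3 and 0.036 for Unc13a. With all libraries it was 0.23 for Syt16, 0.15 for Rims2, 0.090 for Stx6 and 0.058 for Unc13a, and with Slc17a7 as a covariate 0.094 for Stx1a. Members near 1 CPM, such as Vamp9, rest on about 14.56 counts in the shallowest library. No paired analysis was possible because the replicate numbers follow the order of samples and the labels tie no libraries together.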
